A study of Mus musculus with 22 samples.

Results

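The circadian clock genes are 10 named genes of the molecular clock, chosen by name from the 37786 genes of the count table: Arntl, Clock and Npas2, which encode the activators, Per1, Per2, Per3, Cry1 and Cry2, which encode the inhibitors, Nr1d1, which encodes a repressor of Arntl, and Dbp, an output gene of the clock. All 10 were in the table and all 10 passed the filter on low counts. RNA was sequenced from bulk anterior cingulate cortex (ACC) of 22 wildtype C57BL/6J male mice, 12 controls and 10 stimulated. Every mouse carried channelrhodopsin-2, a light-gated cation channel, delivered by AAV5 under the CaMKIIa promoter into the basolateral amygdala (BLA) of both sides, and an optic fibre in the ACC of 1 side, and lived alone after surgery under a reversed light/dark cycle. Stimulated mice received 9 sessions of blue light on the BLA endings in the ACC, and controls went through the sessions with the light off. The ACC of both sides, with and without the fibre, was dissected on a later day than the last session, so the channel sat in the endings of amygdala neurons while the RNA came from all cells of the cortex block. The clock hour of dissection is not given in the sources used here.

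The circadian clock of mammalian cells is a loop of transcription and feedback. ARNTL (also called BMAL1) pairs with CLOCK, or with NPAS2 in the forebrain, and the pair binds E-boxes in the promoters of the Per and Cry genes, Nr1d1 and Dbp, and the PER and CRY proteins then return to the nucleus and block the pair. In a second loop NR1D1 (REV-ERB alpha) represses Arntl, so that Arntl runs out of phase with Nr1d1 and Dbp over the day, while the Per genes peak later than both. In the brain Per1 and Per2 also respond to neuronal activity and to glucocorticoid hormones.

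The libraries are numbered in the labels, with no library 7, and their numbers fall into 2 runs: 1 to 11, here the low-numbered libraries (6 controls and 4 stimulated mice), and 12 to 23, the high-numbered libraries (6 controls and 6 stimulated mice). The study had 2 batches of animals. Its list of the mice in each batch was not used here, so whether the runs are those batches was not checked. Total counts were 23090483 to 43668462 per mouse, and each clock gene had at least 518 counts in every mouse. Markers of cortex were present in each library, with a summed level of 1427 to 3413 CPM (CPM being a gene's counts scaled to the library's total). Of the 6 markers of the suprachiasmatic nucleus and hypothalamus, where the master clock lies, Prok2, Six6, Lhx1 and Nms failed the count minimum. The other 2, Vip and Avp, passed and averaged 106 and 5.89 CPM, and the 6 together summed to 71.0 to 167 CPM. Oligodendrocyte markers summed to 19253 and 14193 CPM in control mice 9 and 11 and to between 2287 and 6173 CPM in the other mice. Mitochondrial genes took 0.98% to 4.81% of the counts, with the highest shares in control mice 1, 2 and 3. With bulk tissue, fewer cells of a type and less RNA per cell cannot be told apart.

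The promoters of Per1, Cry2 and Nr1d1 are shown because these 3 genes varied together most closely between mice, and that of Per3 because it alone among the clock genes with a RefSeq promoter held a D-box, the element bound by DBP, TEF and HLF. Each line gives the 250 bases before a RefSeq start (GRCm38.p6), 5′ to 3′ on the strand of the gene, with an E-box (CACGTG), its variant (CACGTT, read AACGTG on the other strand) or a D-box (TTATGTAA or TTACGTAA) in capitals.
Per1 (chr11:69098699-69098948, plus strand): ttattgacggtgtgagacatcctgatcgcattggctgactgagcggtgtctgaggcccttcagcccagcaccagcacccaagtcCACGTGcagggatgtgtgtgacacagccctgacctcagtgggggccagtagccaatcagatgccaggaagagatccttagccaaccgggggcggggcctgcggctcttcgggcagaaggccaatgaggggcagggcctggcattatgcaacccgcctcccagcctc
Cry2 (chr2:92434070-92434319, minus strand): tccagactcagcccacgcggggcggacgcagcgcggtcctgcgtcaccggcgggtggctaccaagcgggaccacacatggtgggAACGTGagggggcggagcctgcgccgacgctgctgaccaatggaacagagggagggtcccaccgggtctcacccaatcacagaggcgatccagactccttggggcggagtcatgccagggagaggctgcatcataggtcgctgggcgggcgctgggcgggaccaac
Nr1d1 (chr11:98775378-98775627, minus strand): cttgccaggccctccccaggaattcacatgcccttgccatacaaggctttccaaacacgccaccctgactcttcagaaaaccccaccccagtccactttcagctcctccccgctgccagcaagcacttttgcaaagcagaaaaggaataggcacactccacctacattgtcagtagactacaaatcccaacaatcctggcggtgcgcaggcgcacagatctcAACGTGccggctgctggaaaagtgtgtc
Per3 (chr4:151044666-151044915, minus strand): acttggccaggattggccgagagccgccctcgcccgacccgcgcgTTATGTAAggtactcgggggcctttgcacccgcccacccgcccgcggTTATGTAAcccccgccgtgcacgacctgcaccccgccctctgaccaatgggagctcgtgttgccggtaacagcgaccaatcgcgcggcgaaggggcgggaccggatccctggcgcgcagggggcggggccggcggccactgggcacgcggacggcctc
In the window of 300 bases from 250 before to 50 after the start, RefSeq held a promoter of 9 of the 10 genes. Per1 held the E-box at position -166 from its first start, and Cry1 held one at -60 besides the variant at -79. Cry2 held the variant at -166 and Nr1d1 at -28, and Per3 held the D-box at -205 and again at -158. Of all 32851 promoters, 7.15% held the E-box, 4.68% its variant and 1.06% a D-box on either strand. The core of the cAMP response element (TGACG), which overlaps none of these sites, was found for Per1, Cry1 and Cry2 and in 20.8% of all promoters. Arntl held the core of the element bound by ROR and REV-ERB proteins (TAGGTCA or TGGGTCA, in 6.45% of promoters) at position 30 of its second start. These matches are letters in a window and were not tested as binding sites.

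The genes lay on 7 chromosomes (GRCm38, GENCODE M21): Npas2 at chr1:39193731-39363236, Per2 at chr1:91415982-91459324, Cry2 at chr2:92403646-92434043, Per3 at chr4:151003652-151044665, Clock at chr5:76209868-76304792, Dbp at chr7:45705088-45710203, Arntl at chr7:113207465-113314126, Cry1 at chr10:85131700-85185064, Per1 at chr11:69095217-69109960 and Nr1d1 at chr11:98767932-98775333. Exons of 4 of them overlap a gene on the opposite strand. Dbp shares 539 of its 2993 exonic bases (18.0%) with Sphk2, Nr1d1 shares 263 of 3077 (8.55%) with Thra, Cry2 shares 4.67% with D930015M05Rik and Arntl 0.439% with Gm45355. The library kit does not mark the strand, so reads in the shared bases cannot be assigned to either gene. Gm45355 and D930015M05Rik had at most 4 and 12 counts in a mouse, while Thra averaged 438 CPM and Sphk2 28.7 CPM.

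The levels of the clock genes were compared per kilobase of exon, in CPM per kb, within each run of libraries. In the low-numbered libraries Nr1d1 (33.0 ± 5.58, SD, n = 10) and Cry2 (31.0 ± 2.66) were highest and overlapped, Nr1d1 being above Cry2 in 7 of 10 mice. Dbp followed at 26.6 ± 3.87 CPM per kb. The mice then left a gap, since the lowest Dbp level, 22.2, lay above the highest Cry1 level, 11.4. Cry1 (9.71 ± 0.98) and Npas2 (8.97 ± 1.03) overlapped and stood above Arntl (5.35 ± 0.85). Arntl, Per1, Per2 and Per3 each overlapped their neighbour in the order, between 5.35 and 3.85 on average. Clock was lowest, at 2.82 ± 0.38, below Per3 in 10 of 10 mice although the ranges overlapped. In the high-numbered libraries Cry2 stood alone at 54.7 ± 6.26 CPM per kb (n = 12), above Nr1d1 in 12 of 12 mice. Npas2 took the third place at 23.0 ± 2.18 and Dbp the fourth at 15.7 ± 2.36. Clock was again the lowest, at 4.72 ± 0.73.

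The first comparison asked whether clock gene expression differed between stimulated and control mice, with edgeR's quasi-likelihood test, the run of libraries as a covariate and Benjamini-Hochberg adjustment over 17524 genes. None of the 10 clock genes passed an adjusted p of 0.05, and nor did any other gene (0 of 17524, 0%), while 2015 genes had an unadjusted p under 0.05. Over all genes DESeq2's Wald test called 33 and limma called 1, none of them a clock gene. Fitted values lay between 0.22 lower and 0.20 higher on the log2 scale, with 5 genes higher and 5 lower in stimulated mice and a median of 0.02, against a median of 0.01 over all genes. Without adjustment, 3 of the 10 were under a p of 0.05 (Clock and Per3 lower, Dbp higher), beside 11.5% of all genes (6.05% higher and 5.45% lower). With group as the only term none of the 10 was, and 3.61% of all genes were. Arntl (p = 0.056) and Nr1d1 (p = 0.055) lay just outside that limit and Per3 (p = 0.0233) was the nearest inside, while by limma Nr1d1 was inside as well (p = 0.00776), as were 16.3% of all genes. With the mitochondrial share as a covariate 2 of the 10 were inside (Clock and Dbp), beside 10.6% of all genes. With no count minimum 5 were (9.81% of all genes). A block for the replicate number, fitted on replicates 1 to 10 without control mice 11 and 12, gave 1 (7.37%). That block beside the run gave 4 (11.3%).

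**Figure D1:**
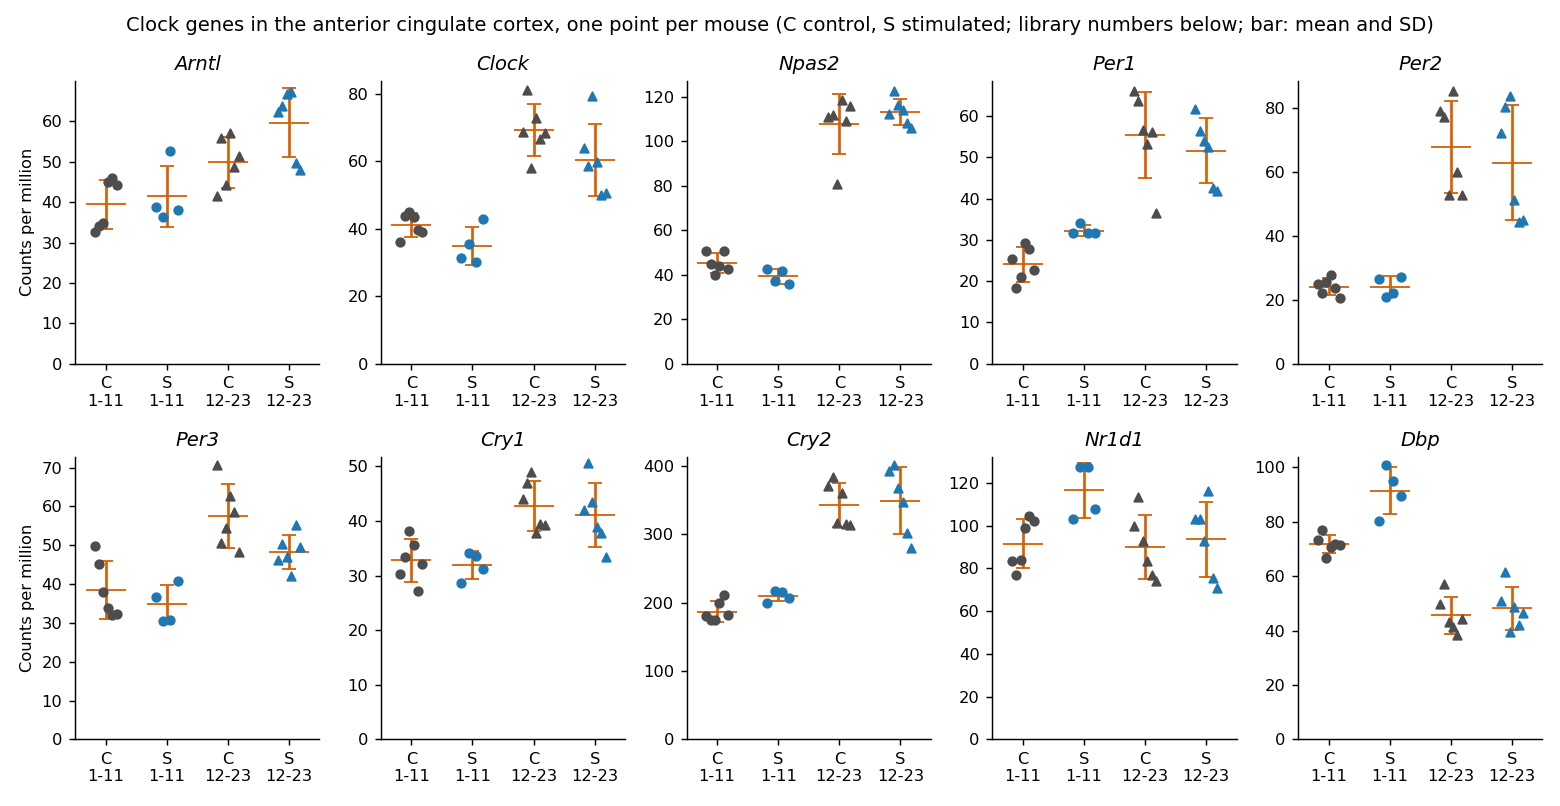
CPM of the 10 clock genes in each mouse, with control (C) and stimulated (S) mice of library numbers 1 to 11 (circles) and 12 to 23 (triangles) in separate columns and the mean and SD in orange. Per2 and Npas2 differ far more between the runs of libraries than between the groups, and Dbp is the gene that is lower in library numbers 12 to 23 without overlap.

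Among the activators, Clock, the histone acetyltransferase partner of ARNTL, was lower in stimulated mice. In the low-numbered libraries controls had 36.0 to 45.1 CPM (median 41.5) and stimulated mice 31.4, 35.4, 30.3 and 42.8 CPM. In the high-numbered libraries controls had 58.0 to 81.1 CPM (median 68.6) and stimulated mice 49.9 to 79.2 (median 59.1). Of the stimulated mice 3 of 4 with low numbers and 2 of 6 with high numbers lay below every control of their run, and the groups overlapped in both. The log2 fold change was -0.22 ± 0.08 (SE, unadjusted p = 0.0109, adjusted p = 0.349) and was similar within each run, at -0.22 ± 0.11 and -0.23 ± 0.11. An exact permutation of mice within runs gave a two-sided p of 0.0112.

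Arntl, the partner of both CLOCK and NPAS2, was higher by 0.18 ± 0.09 (p = 0.056, adjusted p = 0.448). In the high-numbered libraries controls had 41.5 to 57.2 CPM and stimulated mice 48.1 to 67.3, with 4 of 6 stimulated mice above every control (0.23 ± 0.10, unadjusted p = 0.0426). In the low-numbered libraries controls had 32.6 to 45.9 CPM and stimulated mice 38.8, 36.2, 52.5 and 38.1. Only the third of these was above the controls, and the difference there was 0.08 ± 0.13. With the mitochondrial share as a covariate the pooled difference was 0.10 ± 0.08 (unadjusted p = 0.188), the low-numbered one -0.02 ± 0.09 and the high-numbered one 0.14 ± 0.10 (unadjusted p = 0.195). Npas2, the forebrain counterpart of Clock, was 39.7 to 50.7 CPM in low-numbered controls and 42.7, 37.0, 41.9 and 35.9 in stimulated mice, all 4 below the control median of 44.4. In the high-numbered libraries 4 of 6 stimulated mice were above the control median, and the pooled difference was -0.05 ± 0.07 (adjusted p = 0.804). It was -0.10 ± 0.06 (unadjusted p = 0.104) without control mouse 9, and between -0.02 and -0.03 without control mouse 1 or 5 or stimulated mouse 2 or 4.

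Of the inhibitors, Per1, an immediate target of both activity and CLOCK-ARNTL, differed in direction between the runs. Low-numbered controls had 18.2 to 29.2 CPM (median 24.0) and stimulated mice 31.6, 34.2, 31.6 and 31.6, so that every stimulated mouse was above every control, as for 1.29% of all genes in that run in either direction. High-numbered controls had 36.4 to 66.1 CPM (median 56.3) and stimulated mice 41.9 to 61.8 (median 53.3), which overlapped. The log2 fold change was 0.43 ± 0.12 in the low-numbered (unadjusted p = 0.00318, adjusted p = 0.799) and -0.14 ± 0.13 in the high-numbered libraries. The difference between these effects was -0.52 ± 0.19, with an unadjusted p of 0.0112 and an adjusted p of 0.559, beside 8.01% of all genes with an unadjusted p under 0.05 for this term. Npas2 was the other clock gene under that limit (0.28 ± 0.13, p = 0.0397, adjusted p = 0.607). By limma Per1 was not under it (p = 0.0694), and Npas2 was not with DESeq2 size factors (p = 0.0508) or with only genes of at least 10 counts in every mouse (p = 0.0825).

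Per3, the period gene least needed for rhythm in mice, was lower by 0.20 on the log2 scale (-0.20 ± 0.08, unadjusted p = 0.0233, adjusted p = 0.374), and an exact permutation of mice within runs gave a two-sided p of 0.051. High-numbered controls had 48.3 to 70.7 CPM (median 56.4) and stimulated mice 42.1 to 55.1 (median 48.3), all 6 below the control median and 3 below every control. Low-numbered controls had 31.9 to 49.8 CPM and stimulated mice 36.8, 30.6, 30.8 and 40.8, 2 of them below every control. With the mitochondrial share as a further covariate the pooled difference was -0.12 ± 0.07 (unadjusted p = 0.105), the low-numbered difference was 0.0058 ± 0.09 and the high-numbered one -0.25 ± 0.11 (unadjusted p = 0.0382).

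Per2, the period gene whose loss disrupts behavioural rhythm, overlapped between the groups in both runs. Controls had 20.4 to 27.8 CPM and stimulated mice 26.5, 20.9, 21.9 and 27.1 in the low-numbered libraries, and 52.6 to 85.1 against 44.2 to 83.7 in the high-numbered ones, where 3 of 6 stimulated mice lay below every control. Its difference was -0.06 ± 0.11 (adjusted p = 0.865). Cry1, the stronger repressor of the cryptochromes, differed by -0.05 ± 0.07 (adjusted p = 0.821). Cry2 was higher by 0.09 ± 0.07 (adjusted p = 0.615), and in the low-numbered libraries all 4 stimulated mice (199.7 to 217 CPM) lay above the control median of 181, 2 of them above every control (0.18 ± 0.08, unadjusted p = 0.0433).

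**Figure D2:**
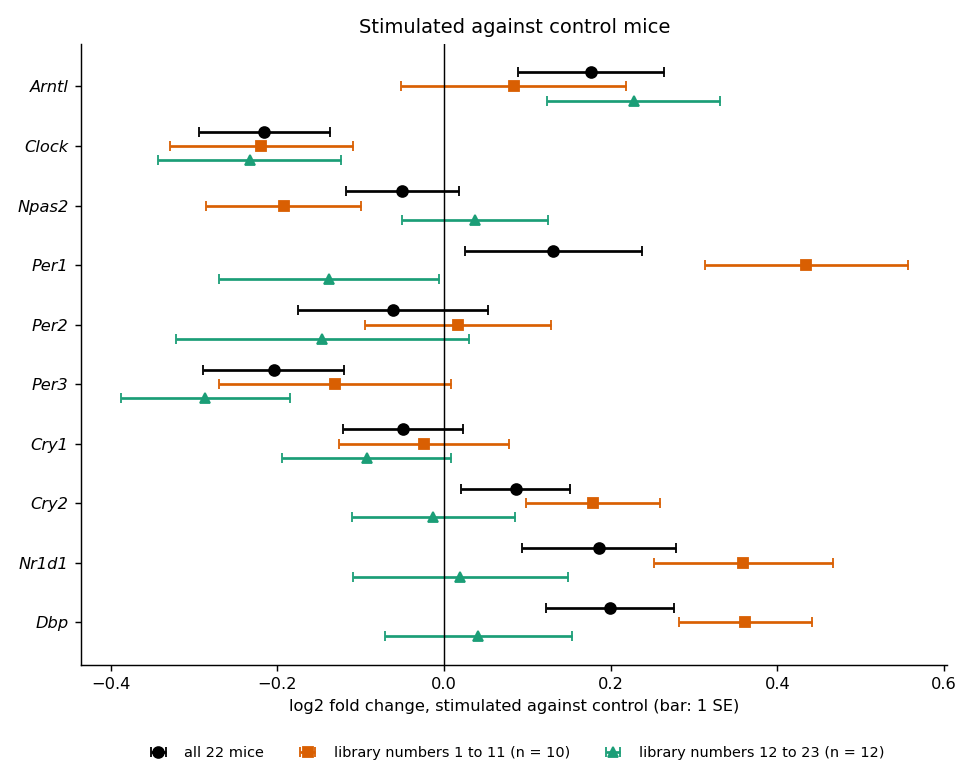
Log2 fold change of each clock gene, stimulated against control, in all mice with the run as a covariate (black circles) and in each run alone (orange squares, library numbers 1 to 11; green triangles, 12 to 23), with bars of 1 SE. Clock is at about -0.2 in all 3 fits, whereas Per1 is at 0.43 in one run and -0.14 in the other.

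The repressor and the output gene were higher in stimulated mice of the low-numbered libraries. Dbp, which encodes a PAR-bZIP transcription factor, was 66.5 to 77.1 CPM in those controls (median 71.7) and 80.4, 101, 95.04 and 89.3 in the stimulated mice, with no overlap. In the high-numbered libraries controls had 38.2 to 57.1 CPM and stimulated mice 39.3 to 61.4, and 1 of 6 stimulated mice was above every control. The pooled log2 fold change was 0.20 ± 0.08 (unadjusted p = 0.0153, adjusted p = 0.357), made of 0.36 ± 0.08 (unadjusted p = 0.000493, adjusted p = 0.799) and 0.04 ± 0.11. With the replicate number as a block beside the run it was 0.12 ± 0.09 (unadjusted p = 0.205). The exact permutation test within the low-numbered libraries gave p = 0.00476, the smallest that 210 arrangements allow. Sphk2, whose exons overlap those of Dbp, differed by 0.02 ± 0.11 there.

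Nr1d1 was 77.0 to 104 CPM (median 91.3) in low-numbered controls and 103, 128, 127 and 108 in the stimulated mice, 3 of them above every control (0.36 ± 0.11, unadjusted p = 0.00483, adjusted p = 0.799). In the high-numbered libraries controls had 74.1 to 113 CPM and stimulated mice 70.7 to 116 (0.02 ± 0.13). The pooled value was 0.19 ± 0.09 (adjusted p = 0.445), and 0.10 ± 0.08 (unadjusted p = 0.199) with the mitochondrial share as a covariate. Thra, a thyroid hormone receptor gene whose exons overlap those of Nr1d1, was at 0.15 ± 0.08 pooled (unadjusted p = 0.0774). It was at 0.05 ± 0.10 in the low-numbered and 0.21 ± 0.11 in the high-numbered libraries, and its part in the Nr1d1 values was not tested. The 3 low-numbered controls with the least Nr1d1, mice 1, 2 and 3 with 83.6, 77.0 and 83.7 CPM, were those with mitochondrial shares of 4.41%, 4.81% and 3.04%. With that share as a covariate the low-numbered difference was 0.28 ± 0.07 for Nr1d1 (unadjusted p = 0.000909), 0.37 ± 0.07 for Dbp and 0.37 ± 0.11 for Per1, and 13.3% of all genes had an unadjusted p under 0.05. Over the 10 genes, 4 had an unadjusted p under 0.05 in the low-numbered libraries alone (Per1, Cry2, Nr1d1 and Dbp, all higher; 5.56% of all genes) and 3 in the high-numbered ones (Arntl higher, Clock and Per3 lower; 12.4% of all genes). No clock gene separated the groups in the high-numbered libraries, where 0.548% of all genes did. The interaction of group and run passed adjustment for none of the 10.

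The second comparison was between the runs of libraries, and it was far larger. With the group as a covariate, 9 of the 10 clock genes differed between high- and low-numbered libraries at an adjusted p under 0.05, 8 higher and Dbp lower, beside 68.1% of all genes (33.7% higher and 34.3% lower). The sizes, rather than the count, set some of the 10 apart from the median of all genes, 0.48 in absolute log2 value. Per2 was 1.44 ± 0.12 higher (adjusted p = 5.48e-11), with 20.4 to 27.8 CPM in the 10 low-numbered mice and 44.2 to 85.1 CPM in the 12 high-numbered ones, and its size exceeded that of 96.7% of genes. Npas2 was 1.37 ± 0.07 higher (adjusted p = 1.17e-14), at 35.9 to 50.7 against 80.7 to 123 CPM, past 95.9% of genes. Neither gene overlapped between the runs.

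Per1 was 0.97 ± 0.11 higher in the high-numbered libraries, Cry2 0.81 ± 0.07, Clock 0.77 ± 0.08 and Per3 0.53 ± 0.09. Arntl and Cry1 were higher by 0.42 ± 0.09 and 0.37 ± 0.07. Dbp went the other way, -0.77 ± 0.08 (adjusted p = 1.64e-09), with 66.5 to 101 CPM in the low-numbered and 38.2 to 61.4 CPM in the high-numbered mice. Nr1d1 was lower by 0.16 ± 0.09, which did not pass (adjusted p = 0.138). It passed with the mitochondrial share in the fit (-0.39 ± 0.10, adjusted p = 0.00162), where Arntl no longer did (0.21 ± 0.10, adjusted p = 0.056). The mice of the 2 runs did not overlap for 6 of the 10 genes (Clock, Npas2, Per1, Per2 and Cry2 higher, Dbp lower), beside 26.1% of all genes. Summed cortex markers did not overlap either, at 1427 to 1823 CPM in the low-numbered and 2433 to 3413 CPM in the high-numbered libraries, and their part in these differences was not tested. Batch of animals, library preparation and hour of dissection cannot be told apart here.

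**Figure D3:**
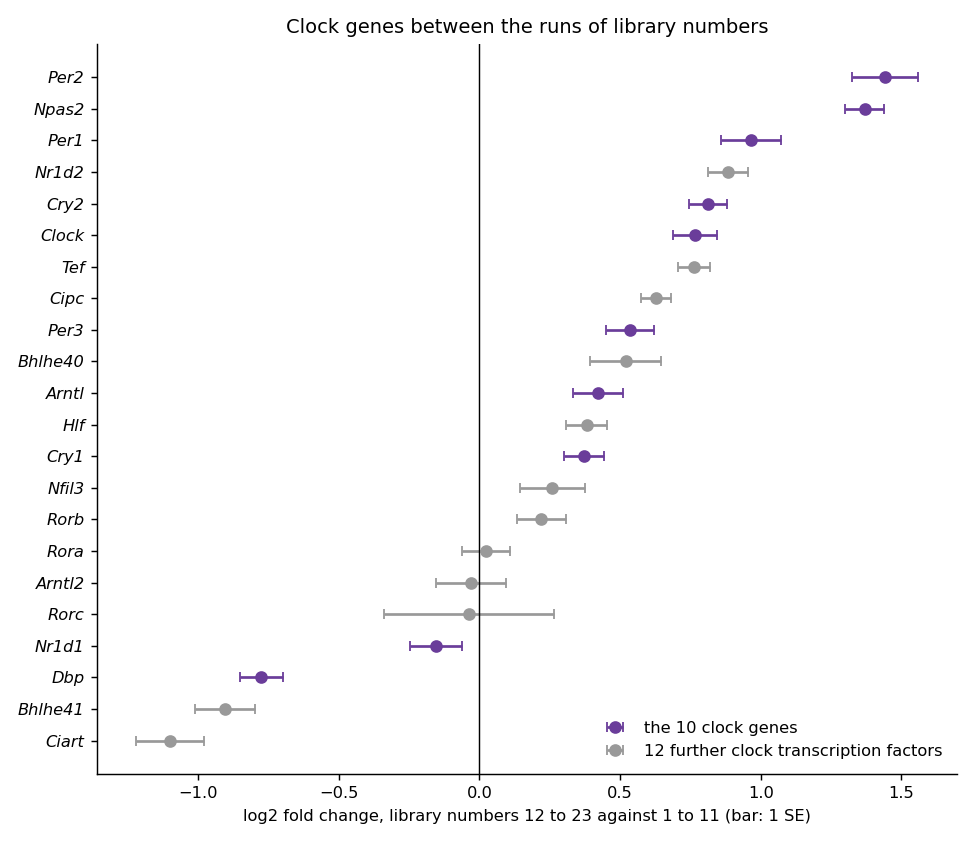
Log2 fold change between the runs (library numbers 12 to 23 against 1 to 11, group as a covariate) of the 10 clock genes (purple) and of 12 further clock transcription factors (grey), in order of size, with bars of 1 SE. Per2 and Npas2 are at the top and Dbp, Bhlhe41 and Ciart at the bottom.

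Other genes of the clock were read from lists of 12 transcription factors, 17 regulators of clock proteins and 12 output genes, of which all but Prok2 were tested. Between groups, 19 of the 40 were higher and 21 lower, with a median of -0.02 and 0 past an adjusted p of 0.05, and 7 were under an unadjusted p of 0.05, beside 11.5% of all genes. With the mitochondrial share as a covariate 1 of the 40 was, beside 10.6% of all genes. Of the transcription factors, 8 of 12 were lower. Nr1d2 (-0.15 ± 0.07), the paralogue of Nr1d1, Rora (-0.19 ± 0.09) and Rorb (-0.19 ± 0.09), activators that share its binding sites, and Arntl2 (-0.31 ± 0.12), the paralogue of Arntl, were the 4 with an unadjusted p under 0.05 (0.0416, 0.0362, 0.0413 and 0.0211). The PAR-bZIP genes Tef (-0.02 ± 0.06) and Hlf (-0.09 ± 0.07), relatives of Dbp, stayed near 0, and Nfil3, their antagonist, was at 0.13 ± 0.12. Among the regulators, Usp2, a deubiquitinase under clock control, was higher (0.16 ± 0.07, p = 0.0334). Of the outputs Tspan4 was higher (0.21 ± 0.07, p = 0.0078). All 7 had adjusted p of 0.342 or more.

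Ciart, a repressor of CLOCK-ARNTL, was 22.7 ± 4.16 CPM (SD, n = 6) in low-numbered controls and 32.9 ± 6.68 (n = 4) in the stimulated mice, and 12.6 ± 1.87 and 12.5 ± 2.71 (n = 6 each) in the high-numbered libraries. Its log2 fold change was 0.55 ± 0.16 in the first (unadjusted p = 0.0035) and -0.05 ± 0.14 in the second, and the difference between them had p = 0.0197 (adjusted p = 0.58). Bhlhe41, which competes for E-boxes, was 0.22 ± 0.11 and -0.45 ± 0.14, with a difference of -0.62 ± 0.18 (p = 0.0023, adjusted p = 0.545). Its paralogue Bhlhe40 was 0.29 ± 0.17 and 0.11 ± 0.16. Between runs, Nr1d2 (0.88 ± 0.07), Tef (0.76 ± 0.06), Bhlhe40 (0.52 ± 0.13) and Hlf (0.38 ± 0.07) were higher in the high-numbered libraries, with Per2 and Npas2. Ciart (-1.10 ± 0.12) and Bhlhe41 (-0.90 ± 0.11) were lower, with Dbp, and Rora was at 0.02 ± 0.09. Of the outputs Avp, which encodes vasopressin and is also a hypothalamic marker, is named after its values were seen. It was 11.4 ± 7.12 CPM (SD, n = 10) in the low-numbered and 1.33 ± 0.993 (n = 12) in the high-numbered libraries (-3.06 ± 0.41, edgeR adjusted p = 2.51e-07).

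Since Per1 and Per2 also answer to activity and to corticosterone, lists for both were read beside them. Of 12 activity-induced genes 11 were higher in stimulated mice, with a median of 0.15 (Per1 was at 0.13), but 0 had an unadjusted p under 0.05, and the median over all genes was 0.01. Junb (0.34 ± 0.17, p = 0.057), Egr4 (0.30 ± 0.18, p = 0.107) and Fosb (0.20 ± 0.18, p = 0.276) had the smallest p. In the low-numbered libraries the median was 0.29 with 11 of 12 higher, and in the high-numbered ones it was 0.04 with 6 of 12 higher. In either run 0 of the 12 had an unadjusted p under 0.05. Of 12 glucocorticoid-induced genes 8 were higher, with a median of 0.03 and again 0 under 0.05. Cdkn1a (0.24 ± 0.13, p = 0.072), Fkbp5 (0.16 ± 0.09, p = 0.0824) and Tsc22d3 (-0.13 ± 0.08, p = 0.094) had the smallest p. The median of the list was 0.14 in the low-numbered libraries, with 10 of 12 higher, and -0.06 in the high-numbered ones, with 10 of 12 lower. In each run 1 of the 12 had an unadjusted p under 0.05, beside 5.56% of all genes in the low-numbered and 12.4% in the high-numbered libraries. In the low-numbered libraries it was Fkbp5, a chaperone gene induced by corticosterone (0.40 ± 0.12, p = 0.00399, against -0.06 ± 0.11 in the other run). In the high-numbered ones it was Tsc22d3, also called Gilz (-0.29 ± 0.09, p = 0.00354, against 0.03 ± 0.12). None of the 24 passed adjustment in either run. Any part of activity or corticosterone in the Per1 and Per2 values was not tested.

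Oligodendrocyte markers differed between the groups when both runs were fitted together, though none passed adjustment. All 7 were lower in stimulated mice, at a median of -0.69, and 7 of 7 had an unadjusted p under 0.05. Within the low-numbered libraries 5 of 7 were higher, with a median of 0.13 and 0 under that limit. Within the high-numbered ones, where control mice 9 and 11 had the highest sums, the median was -1.31. Without these 2 mice all 7 were still lower, at a median of -0.10, and 0 of 7 had an unadjusted p under 0.05. Without them all 10 clock genes had the same direction as with them, at -0.25 ± 0.08 for Clock (unadjusted p = 0.00604), -0.20 ± 0.09 for Per3, 0.18 ± 0.08 for Dbp and 0.15 ± 0.10 for Arntl. Npas2 moved most, from -0.05 to -0.10 ± 0.06 (unadjusted p = 0.0915). All 6 astrocyte markers were lower (median -0.17, 0 under an unadjusted p of 0.05) and all 7 neuron markers higher (median 0.10, 2 under it). Of 5 markers of choroid plexus and ependyma 3 were tested, and all 3 were lower (median -0.82, 2 under it), or at a median of -0.23 with 1 under it without control mice 9 and 11. Their sum was 3.77 to 133 CPM in controls and 5.61 to 16.8 CPM in stimulated mice. Of the other lists, 5 of 6 endothelial markers were lower, 4 of 6 microglial and all 6 striatal markers higher, with 0 under that limit. The part of these cell types in the clock gene values was not tested.

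The clock genes were then compared with each other across the 22 mice, on log2 CPM with the mean of each group in each run removed. Of 45 pairs, 9 correlated at a permutation p under 0.05 after Benjamini-Hochberg adjustment over the pairs, 8 positively, and 7 of them also by Spearman's rho. Many genes outside the clock correlated with a member as strongly, as the ranks among all genes given with some pairs show. Cry2 was the centre of this pattern. It correlated with Nr1d1 (r = 0.80, permutation p = 0.00027, adjusted 0.0045, rho = 0.81, permutation p = 0.00015), and r was 0.82 in the 10 low-numbered and 0.80 in the 12 high-numbered mice. Among 17523 genes ordered by r, Nr1d1 ranked 89 for Cry2 and Cry2 ranked 282 for Nr1d1. It correlated with Per1 (r = 0.76, permutation p = 4e-05, adjusted 0.0018, rho = 0.78, permutation p = 0.00014), with 0.80 and 0.75 in the 2 runs. Per1 and Nr1d1 completed the group (r = 0.74, permutation p = 0.0003, adjusted 0.0045, rho = 0.65, permutation p = 0.00447), with Nr1d1 at rank 70 for Per1 and Per1 at 791 for Nr1d1. Without the 2 mice farthest from the median, r was 0.75, 0.82 and 0.71 for these 3 pairs.

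Per2 correlated with Cry2 as well (r = 0.74, permutation p = 0.00261, rho = 0.76, permutation p = 0.00216), but by run this held in the high-numbered mice, where r was 0.89, while it was -0.0041 in the low-numbered ones. Clock and Per2 were alike in this (r = 0.66, permutation p = 0.00372, rho = 0.65, permutation p = 0.0049), with 0.33 and 0.78. Arntl and Per3 gave the only negative pair (r = -0.65, permutation p = 0.00327, adjusted 0.0279, rho = -0.61, permutation p = 0.00827), at -0.74 and -0.54 in the runs and -0.67 without the 2 farthest mice. Arntl and Nr1d1, which alternate over the day, correlated positively (r = 0.58, permutation p = 0.0084, adjusted 0.042, rho = 0.59, permutation p = 0.00815), with 0.76 and 0.50 in the runs and 0.51 without the 2 farthest mice. Among 17523 genes ordered by r, Nr1d1 ranked 2328 for Arntl and Arntl 2406 for Nr1d1. Within single runs, with the group means left in, 3 pairs passed adjustment in the low-numbered and 1 in the high-numbered libraries.

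**Figure D4:**
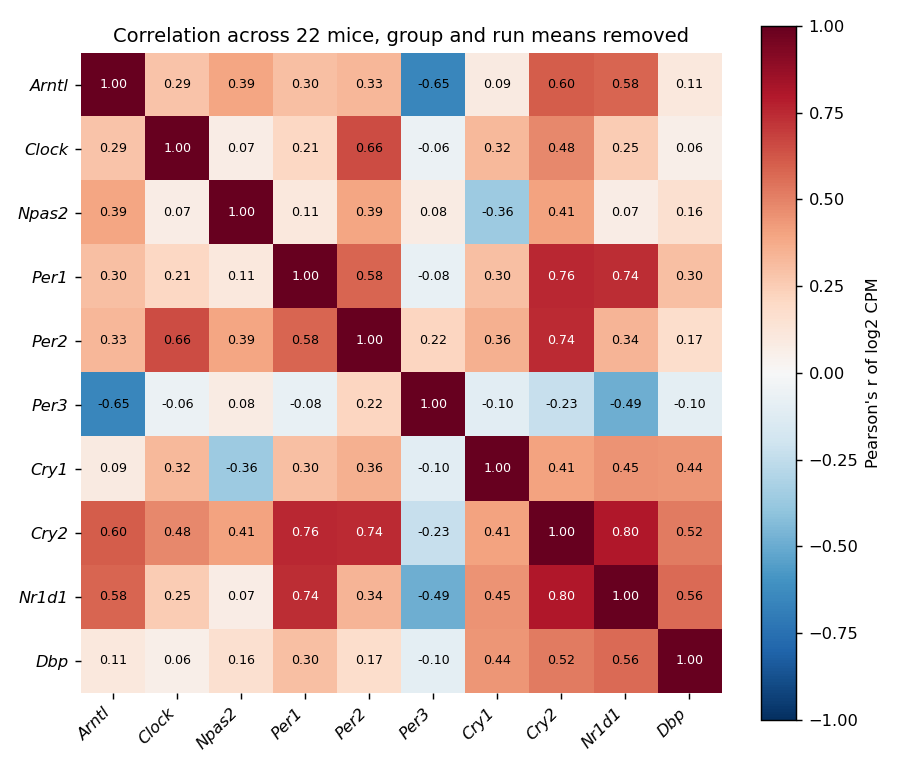
Pearson's r of log2 CPM between each pair of clock genes across 22 mice after removing the mean of each group in each run. The block of Per1, Cry2 and Nr1d1 is the reddest, at 0.74 to 0.80, and Arntl with Per3 is the bluest, at -0.65.

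The share of mitochondrial counts moved with several of these genes, by the same centred measure over 22 mice and 30 relations. Nr1d1 (r = -0.73, permutation p = 0.00016, adjusted 0.0048, rho = -0.77, permutation p = 0.00011) and Arntl (r = -0.71, permutation p = 0.00116, adjusted 0.0116, rho = -0.75, permutation p = 0.00081) were lower in mice with a larger share. Cry2 was too (r = -0.56, permutation p = 0.00419, adjusted 0.0314, rho = -0.54, permutation p = 0.0114). Per3 went the opposite way (r = 0.64, permutation p = 0.00999, adjusted 0.0599, rho = 0.61, permutation p = 0.0138), whereas Dbp showed little relation (r = -0.13, permutation p = 0.521, rho = -0.16, permutation p = 0.462). Without the 2 mice farthest from the median share, r was -0.72 for Nr1d1, -0.66 for Arntl, -0.57 for Cry2 and 0.48 for Per3. Npas2 was lower in mice with more oligodendrocyte marker RNA (r = -0.68, permutation p = 0.00097, adjusted 0.0116, rho = -0.55, permutation p = 0.00751; r = -0.57 without the 2 farthest mice), and no clock gene correlated with the total count at an adjusted p under 0.05. The part of the mitochondrial share in the correlations between clock genes was not tested.

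**Figure D5:**
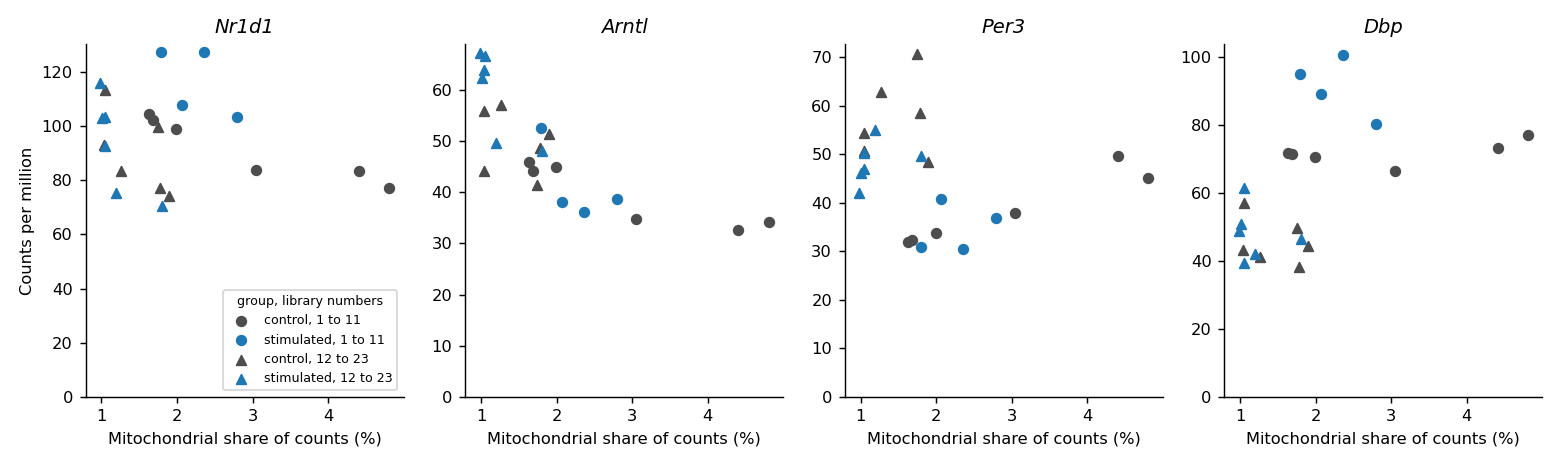
CPM of Nr1d1, Arntl, Per3 and Dbp against the percentage of mitochondrial counts in each mouse, by group (grey control, blue stimulated) and library numbers (circles 1 to 11, triangles 12 to 23). Among the circles Nr1d1 and Arntl are lowest in the 3 control mice with the largest shares, while Dbp is higher in all 4 stimulated mice than in the 6 controls.

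Finally the genes most like 4 of the clock genes were ranked by r over the 22 mice among 17523 genes, as a description. Among the genes most like Per1 were Mfsd12 (0.89), Prpf3 (0.88), Plk3 (0.83) and Ube2h (0.83), and Nr1d1 was most like Actr1b (0.92), Rusc1 (0.91), Ankrd34a (0.90), Kat2a (0.89) and Pip4k2c (0.89). Arntl was most like Lrfn1 (0.87), Cdyl2 (0.87), Cobl (0.87), Ift81 (0.86) and Nup133 (0.86). Dbp had no partner as close, with Tmem132e (0.77), Dlk2 (0.75), Spats1 (0.75), Tnmd (0.74) and Nectin2 (0.72). In the orders of all 10 genes, the other members and the companion genes held 490 ranks with a median of 5449, and 15 of these (3.06%) were within the first 100, which hold 0.571% of the genes. Of those 15, Ciart ranked 16 for Nr1d1 (r = 0.87), Bhlhe40 ranked 17 for Cry2 (0.86), Tef ranked 22 for Npas2 (0.74), Cry2 ranked 29 for Per2 and 42 for Per1, and Nr1d1 ranked 71 for Dbp (0.56). The ranks differed by direction, as Per2 ranked 282 and Per1 229 for Cry2, and Dbp ranked 2589 for Nr1d1.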

How the data were processed

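The deposited table held, for each of 22 mice, whole-number counts per gene and the same counts divided by size factors. Per the labels and the methods, the authors used cutadapt 1.10 for trimming, STAR 2.5.3a for alignment (mm10) and HTSeq 0.6.1p1 for counting unique alignments on Ensembl genes; the strand setting of the counting is not given in the sources used here. The deposited signal, counts divided by the authors' size factors, served only as a check (correlation with recomputed factors 0.99963). The 3 columns of the authors' own comparison (log2 fold change, p-value and adjusted p) were not used. No other columns of per-sample values were present (0).

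Groups and library numbers came from the labels. Counts were tested with edgeR 4.0.16 in R 4.3.3 (TMM, glmQLFit and glmQLFTest, terms for run of library numbers and group) over the 17524 of 37786 genes that reached 10 counts in 10 or more mice, with Benjamini-Hochberg adjustment and a threshold of 0.05. The methods use batch and RNA integrity as covariates. Run stood in for batch, and RNA integrity was not used here. CPM used TMM library sizes, log2 CPM a prior count of 2, and standard errors are the log2 fold change over the root of the F statistic. Permutation tests were two-sided, exact for group differences and with 100000 resamples for correlations (scipy 1.17.1). The tests were checked on simulated data. Alternatives were DESeq2 1.42.0 size factors and Wald test, limma 3.58.1 voom, other count minimums, group alone, the mitochondrial share, the replicate number as a block, each run alone and leaving out each mouse. Replicates are separate mice of one group by their labels.

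The clock genes and all gene lists were chosen with earlier results of these data known. Named genes are the 10 members, 8 fixed clock genes (Nr1d2, Tef, Hlf, Ciart, Bhlhe40, Bhlhe41, Nfil3 and Rora), companion genes with an unadjusted p under 0.05, up to 3 activity or glucocorticoid genes of smallest p, the 5 genes most like Per1, Dbp, Nr1d1 and Arntl, and genes whose exons overlap a member. Some genes that this rule names are not reported here. Within-run values of Fkbp5 and Tsc22d3 were given after they had been seen. Positions are from GENCODE M21 on GRCm38, where 37772 identifiers matched. Errors of CPM values are the SD between mice, and errors of log2 fold changes are standard errors of the fit.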

Additional observations from a re-analysis of the deposited data

Results flagged for a closer look

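In 40 sets of mice of one group and run, 3 values of clock genes stood apart from the rest by Dixon's test, where chance gives about 1 in 20 sets, or 2. Arntl was 52.5 CPM in stimulated mouse 3 and 36.2 to 38.8 CPM in the other 3 stimulated mice of the low-numbered libraries. Npas2 was 80.7 CPM in control mouse 9 and 109 to 118 CPM in the other 5 controls of the high-numbered libraries, and that mouse also had the highest sum of oligodendrocyte markers, 19253 CPM, whose part in the Npas2 level was not tested. Without it the Npas2 difference between groups was -0.10 ± 0.06 on the log2 scale, against -0.05 ± 0.07 with it. Per1 was 34.2 CPM in stimulated mouse 2 and 31.6 CPM in each of the other 3, a gap that is large only against their close agreement.

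The difference between stimulated and control mice itself differed between the runs of libraries at an unadjusted p under 0.05 for Per1 (-0.52 ± 0.19 on the log2 scale) and Npas2 (0.28 ± 0.13), by edgeR's test of the interaction. Neither passed adjustment over all genes (adjusted p = 0.559 and 0.607), and 8.01% of all genes were under that unadjusted limit. Per1 was not under that limit by limma (p = 0.0694), nor Npas2 with DESeq2 size factors (p = 0.0508) or with at least 10 counts in every mouse (p = 0.0825). In the low-numbered libraries Per1 was higher in 4 of 4 stimulated mice than in every control, and Npas2 was below the control median in 4 of 4.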

How the results depend on the processing

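No clock gene passed an adjusted p of 0.05 between groups under any setting, and the smallest adjusted p over them was 0.13. Of 370 values of single clock genes, 352 kept their direction and 18 reversed, none of these on leaving out 1 mouse, and Clock alone never reversed. Settings with the mitochondrial share within a run, those without control mice 9 and 11, and the other tools for the run and interaction terms were chosen after seeing the data.

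Genes past an adjusted p of 0.05 numbered 0, but 33 by DESeq2's Wald test, 1 by limma and 1 without control mice 9 and 11 (0 to 1 on leaving out 1 mouse, 1 without control mouse 9). At an unadjusted p under 0.05 there were 2015 genes, but 3687 with no count minimum, 632 with group alone, 1291 with the replicate block and no run term and 974 in library numbers 1 to 11, with 2860 by limma and 1864 with the mitochondrial share (1561 to 2489 on leaving out 1 mouse). Of clock genes 3 had such a p, but 2 with the mitochondrial share (without Per3), 5 with no minimum, 0 with group alone and 1 with the block and no run term (3 to 5 on leaving out 1 mouse, 5 without control mouse 5), and by limma 4, with Nr1d1 (p = 0.00776) added. Of companion genes 7 did, but 1 with group alone, 1 with the mitochondrial share, 2 with the block and no run term, 3 in library numbers 1 to 11, 4 in 12 to 23 and 4 without control mice 9 and 11 (3 to 8 on leaving out 1 mouse, 3 without control mouse 2). For the interaction of group and run 2 clock genes did (Per1 and Npas2), beside 1403 of all 17524 genes. With DESeq2 size factors 1 did (Per1), beside 1351 genes, and with limma 1 (Npas2), beside 1892. With at least 10 counts in every mouse Per1 and Dbp (edgeR p = 0.0319) did, beside 1145 of 14554 genes. Correlated pairs numbered 9, but 3 in library numbers 1 to 11 and 1 in 12 to 23, with fewer mice and with the group means left in. The causes were not tested.

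Reversed log2 fold changes were, with group alone, 0.13 for Npas2 and 0.043 for Per2, and by limma 0.014 for Cry1. In library numbers 1 to 11 Per2 was at 0.017, and with the mitochondrial share Arntl was at -0.021, Per2 at 0.015 and Per3 at 0.0058. In 12 to 23 Npas2 was at 0.037, Per1 at -0.14 and Cry2 at -0.013, and with the mitochondrial share Npas2 was at 0.065, Per1 at -0.25, Cry2 at -0.10, Nr1d1 at -0.13 and Dbp at -0.0014. With the replicate block and no run term Npas2 was at 0.22, Per2 at 0.14 and Cry1 at 0.0017.

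Replicate numbers 1 to 10 did not pair the mice: after centring on group and run, same-numbered mice correlated at a mean of 0.0511 (-0.133 to 0.268), over 0.1 in 3 of 10 pairs, and 2 of 10 stimulated mice correlated best with their own number. With the replicate block and the run kept, 0 genes passed adjustment, 1980 had an unadjusted p under 0.05, and 4 clock genes did, with Clock at -0.26, Per2 at -0.24, Per3 at -0.28 and Cry1 at -0.16, while Dbp was no longer under it (0.12, p = 0.205). Depth was no limit for the clock genes, with at least 518 counts in every mouse.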
